A study of Mus musculus with 36 samples.

Results

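Genes for adhesive glycoproteins of the extracellular matrix were followed in mouse tibial bone, namely *Fn1*, *Tnc*, *Tnn*, *Tnxb*, *Postn*, *Sparc*, *Thbs1*, *Thbs2*, *Thbs3* and *Thbs4*. They were chosen by symbol and make up 10 of the 56246 genes in the expression table, and all 10 passed the filter that left 16123 genes for testing. The rule uses symbols only.

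The study asked how progeria mutant bone changes in mice and what adenine base editing of the mutation does to it. RNA was sequenced from tibiae of 36 mice aged 6 months. The ends of each bone and its marrow were removed first, which by the study's account leaves chiefly the cortex. The wild-type group held 12 mice labelled NT, which received no injection. The saline group held 12 mice of the genotype LMNAG608G/G608G (LMNA G/G in what follows), injected behind the eye with saline on postnatal day 14. The ABE group held 12 LMNA G/G mice injected by the same route on the same day with a pair of AAV9 vectors that encode an adenine base editor. Each group had 6 females and 6 males. LMNA G/G mice carry copies of a human bacterial artificial chromosome with the mutant LMNA gene and its neighbour RAB25 on top of their own mouse Lmna, on a C57BL/6J background. Edited animals are mosaics, so the ABE libraries mix RNA of edited and unedited cells. The study's text calls the groups littermates, but the labels give no litters. The wild-type mice come from their own series of mouse numbers, and genotype, injection and that series cannot be told apart in any comparison with them.

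Fibronectin is assembled by cells into fibrils through integrins, and collagens and other matrix proteins attach to this scaffold. Tenascins, thrombospondins, periostin and SPARC are matricellular proteins, which sit in the matrix without carrying load and tune how cells adhere to it, how collagen fibrils form and how growth factors are held. In the skeleton periostin and tenascin-C are known from the periosteum, SPARC (osteonectin) is an abundant noncollagenous protein of mineralized matrix, and thrombospondin-4 and tenascin-X are typical of tendon, ligament and muscle connective tissue. Thrombospondin-1 is also stored in the granules of platelets.

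Between 48064068 and 116206662 reads per library fell on genes, and no library had the same values as another. Scale factors ran from 0.216 to 1.57, with 0.216 in the female ABE library of replicate 1, where 96.6% of the deposited TPM lay on very short genes. The label of bone was checked against marker lists. The summed scaled TPM of 8 osteoblast markers had medians of 1219 in wild-type, 1269 in saline and 1244 in ABE libraries, and that of 8 osteocyte markers had medians of 31.5, 378 and 278. The osteoblast sum is led by *Col1a1*, with a mean of 930 over all libraries. In the limma fit described below, 3 of the 8 osteoblast markers were higher in saline than in wild-type bone (25.7% of all genes). In ABE against wild-type 4 of the 8 were higher (34.7% of all genes). Transcripts of blood cells made in marrow were present too. The sum of 8 neutrophil markers had medians of 1406, 2434 and 1506, and that of 8 erythroid markers 242, 262 and 123. Skeletal muscle transcripts were present in every group and differed between them, with medians of 1097, 2230 and 6766 for the sum of 13 markers, and the ABE library of replicate 1 held the highest sum at 13981.

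The promoters of 5 members, chosen after their values were seen, are shown first as examples of how levels differed with both sexes fitted together. *Tnc* and *Postn* were higher in both LMNA G/G groups. *Tnxb* and *Thbs3* were lower in saline and higher in ABE than in saline bone, and *Thbs4* was higher in ABE bone than in either other group. The promoters are given as the 250 bases before the RefSeq transcription start (GRCm38.p6), read on the strand of the gene. Entries matched 8 of the 10 members, all but *Fn1* and *Thbs1*. Capitals mark matches to 6 motifs searched on both strands. They are the TATA box (searched as TATAAA), the RUNX site (searched as TGTGGT), the AP-1 site (searched as TGANTCA), the CCAAT box under its own letters, the E-box (searched as CAGCTG) and the GC box (searched as GGGCGG). No marked match overlaps another. *Tnc* lies at chr4:64047016-64047265 on the minus strand, *Postn* at chr3:54360857-54361106 on the plus strand, *Tnxb* at chr17:34670285-34670534 on the plus strand, *Thbs3* at chr3:89214930-89215179 on the plus strand and *Thbs4* at chr13:92794819-92795068 on the minus strand.
Tnc: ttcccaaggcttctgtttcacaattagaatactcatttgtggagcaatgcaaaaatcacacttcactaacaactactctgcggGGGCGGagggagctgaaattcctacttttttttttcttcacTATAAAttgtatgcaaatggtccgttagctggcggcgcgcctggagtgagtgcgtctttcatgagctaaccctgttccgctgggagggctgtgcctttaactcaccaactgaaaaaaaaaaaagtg
Postn: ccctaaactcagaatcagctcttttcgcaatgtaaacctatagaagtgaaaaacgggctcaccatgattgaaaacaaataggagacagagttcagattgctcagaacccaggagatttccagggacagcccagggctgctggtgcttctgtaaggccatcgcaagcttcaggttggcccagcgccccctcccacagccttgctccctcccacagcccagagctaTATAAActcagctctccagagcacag
Tnxb: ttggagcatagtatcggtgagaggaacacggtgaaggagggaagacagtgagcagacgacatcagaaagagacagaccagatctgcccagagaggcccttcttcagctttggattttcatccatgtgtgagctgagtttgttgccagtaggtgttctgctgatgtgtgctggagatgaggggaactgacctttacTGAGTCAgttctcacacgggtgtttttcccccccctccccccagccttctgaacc
Thbs3: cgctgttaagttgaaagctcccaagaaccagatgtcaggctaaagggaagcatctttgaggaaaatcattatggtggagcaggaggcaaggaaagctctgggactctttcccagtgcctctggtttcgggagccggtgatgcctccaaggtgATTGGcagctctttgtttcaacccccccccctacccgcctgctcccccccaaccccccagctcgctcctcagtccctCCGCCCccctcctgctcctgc
Thbs4: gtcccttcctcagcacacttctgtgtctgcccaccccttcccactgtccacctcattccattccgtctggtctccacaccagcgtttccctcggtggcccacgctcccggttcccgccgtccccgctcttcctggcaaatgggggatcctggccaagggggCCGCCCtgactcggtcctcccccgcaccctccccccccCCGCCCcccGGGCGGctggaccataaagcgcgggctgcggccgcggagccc

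The *Postn* window has TATAAA 26 bases before the start, and the *Tnc* window has it 126 bases before the start beside a GC box. Among 32851 RefSeq windows of the same length, 12.4% hold TATAAA and 32.7% hold the GC box. The *Tnxb* window holds TGANTCA 55 bases before the start, a motif present in 6.75% of windows. The *Thbs3* window holds a CCAAT match, present in 33.8% of windows, and a GC box, and the *Thbs4* window holds 3 GC boxes. The genes themselves differ in length, from 3289 bp of exons in *Thbs4* to 13488 bp in *Tnxb*, so levels are compared between genes only as TPM, which is per length. *Thbs3* lies within the span of *Mtx1* on the opposite strand, which had a mean of 1.23 scaled TPM, and whether the counting used strand is not given in the sources used here.

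Levels in scaled TPM differed widely among the members within wild-type bone. *Sparc* was highest with a mean of 141.9 ± 52.7 (SD, n = 12), followed by *Fn1* at 55.7 ± 24.9, *Thbs1* at 31.1 ± 4.76 and *Tnc* at 31.0 ± 9.82. The lower 6 were *Thbs4* at 7.56 ± 4.88, *Tnxb* at 3.995 ± 2.26, *Postn* at 3.67 ± 2.06, *Thbs2* at 2.30 ± 1.17, *Tnn* at 1.54 ± 1.08 and *Thbs3* at 0.9997 ± 0.458. In this order only the steps from *Sparc* to *Fn1* and from *Tnc* to *Thbs4* were larger than the larger SD of the pair. In saline bone *Tnc* stood second at 61.4 ± 17.7 and *Fn1*, at 14.3 ± 2.05, came after *Thbs1* at 23.3 ± 7.23. In ABE bone *Fn1* at 17.5 ± 5.43, *Thbs1* at 17.1 ± 6.12 and *Thbs4* at 16.9 ± 8.82 could not be separated by their spread.

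**Figure D1:**
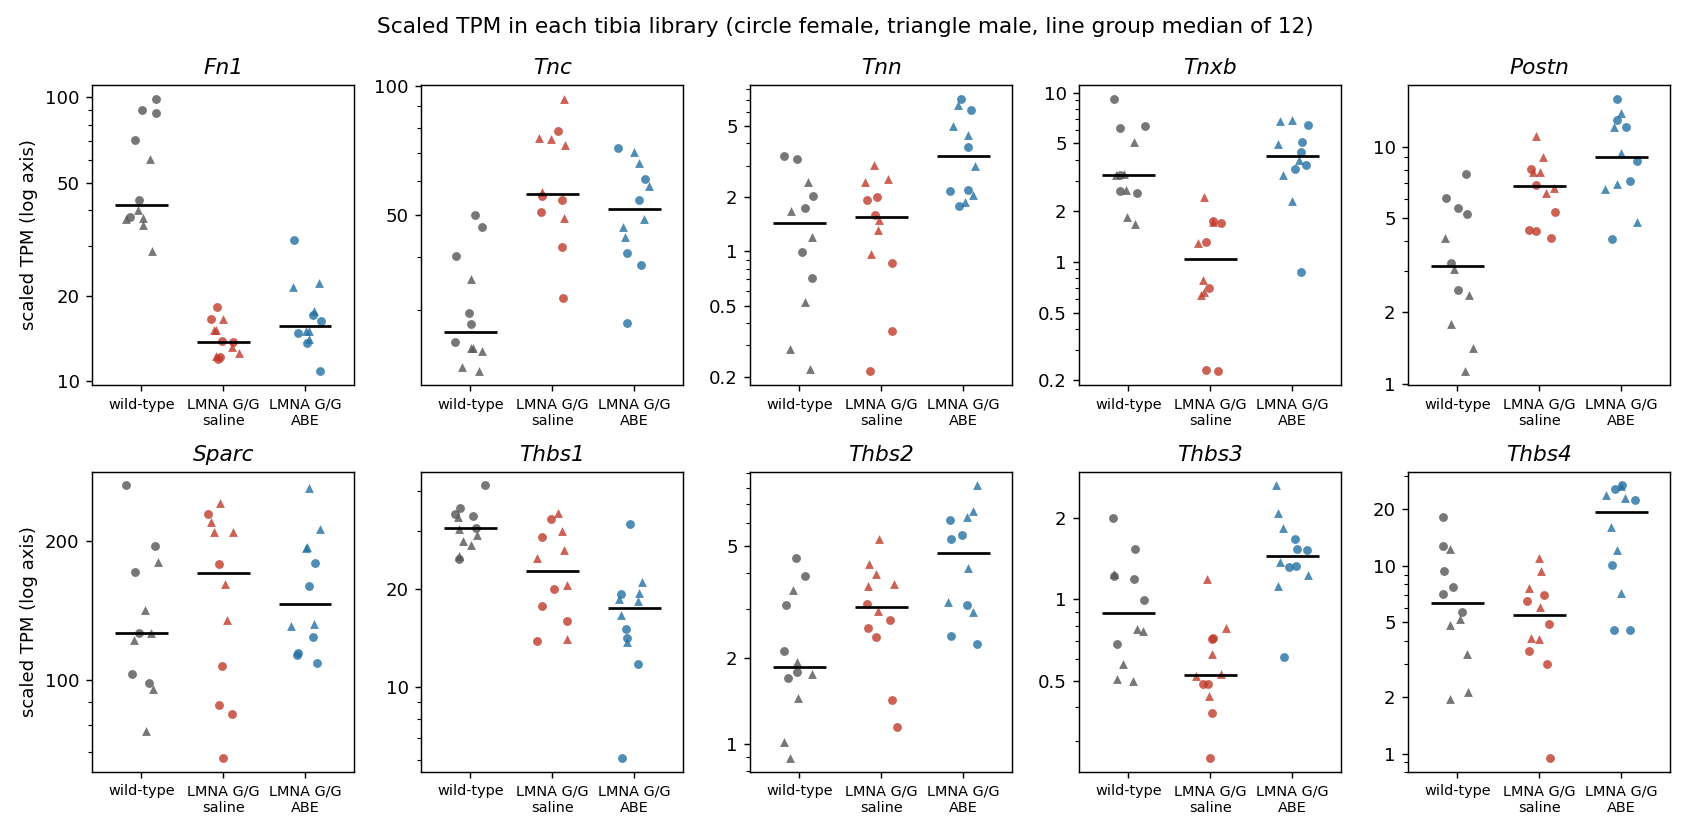
Scaled TPM (log axis) of each member in the 36 tibia libraries, by group, with circles for females, triangles for males and a line at the median of 12 mice. *Fn1* lies lower in every saline library (12.02 to 18.3) than in any wild-type library (28.9 to 99.0), while *Tnxb* and *Thbs3* dip in saline and stand higher in ABE libraries.

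Differences were taken from limma on log2(scaled TPM + 0.5) with sex as a covariate and Benjamini-Hochberg adjustment over 16123 genes, and a gene was called at an adjusted p under 0.05. Between saline and wild-type bone 6 of 10 members were called, 2 higher (*Tnc*, *Postn*) and 4 lower (*Fn1*, *Tnxb*, *Thbs1*, *Thbs3*), where 52.7% of all genes were called, 25.7% higher and 27.0% lower. Between ABE and wild-type bone 8 were called, with *Tnc*, *Tnn*, *Postn*, *Thbs2*, *Thbs3* and *Thbs4* higher and *Fn1* and *Thbs1* lower, against 70.5% of all genes (34.7% higher, 35.8% lower). Between ABE and saline bone 5 were called, with *Tnn*, *Tnxb*, *Thbs3* and *Thbs4* higher and *Thbs1* lower, against 48.5% of all genes (24.8% higher, 23.7% lower). The medians of the 10 log2 fold changes were −0.11, 0.60 and 0.46, beside 0.0013, −0.022 and −0.0023 over all genes. The counts of members called lie near the share called among all genes, so the members are described below by their own values. In bulk bone fewer cells of a type and less RNA per cell cannot be told apart, and the 3 comparisons share their groups pairwise.

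**Figure D2:**
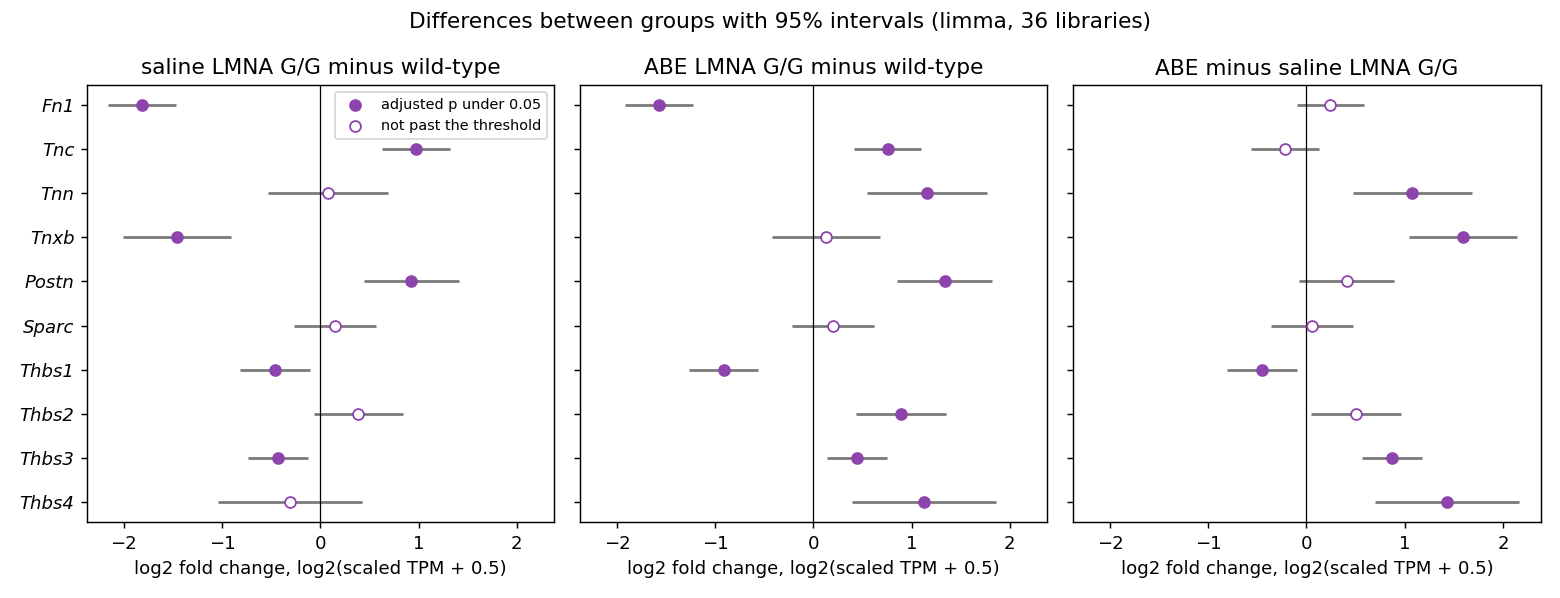
Log2 fold change on the log2(scaled TPM + 0.5) scale with 95% intervals (limma, 12 mice per group) for each member in the 3 comparisons, filled where the adjusted p was under 0.05. *Fn1* stands lowest against wild-type in both LMNA G/G groups (−1.81 and −1.57), and *Tnxb* and *Thbs4* stand highest between ABE and saline (1.59 and 1.43).

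Fibronectin transcripts were sharply lower in LMNA G/G bone, with or without base editing. *Fn1* (chr1:71585520-71653200, GRCm38, minus strand) had 28.9 scaled TPM in the lowest wild-type library, 41.9 at the median and 99.0 in the highest. Saline libraries ran from 12.02 through 13.8 to 18.3, and ABE libraries from 10.9 through 15.7 to 31.5. All 12 saline values and 11 of 12 ABE values lay below the lowest wild-type value. Groups without overlap in this direction were found for 4.82% of all genes between saline and wild-type. *Fn1* fell by 1.81 on the log2 scale in saline bone (SE 0.17, adjusted p = 2.1e-10) and by 1.57 in ABE bone (SE 0.17, adjusted p = 2.3e-09). ABE and saline bone differed by 0.24 (SE 0.17, adjusted p = 0.24), with a 95% interval from −0.10 to 0.59, and 3 ABE libraries lay above the highest saline value. The gene most like *Fn1* with the group and sex means left in was *Prg4* (r = 0.95 over 36 libraries, 3936 genes searched). *Prg4* encodes lubricin of the joint surface. This r includes the group differences of both genes. After those means were removed, *Scara3* (0.817) and *Vim* (0.762) ranked above *Prg4* (0.761). Cartilage markers moved in the same direction as *Fn1*, with median sums of 118 in wild-type, 33.6 in saline and 44.8 in ABE libraries. Of the 5 tested, 4 were lower in each LMNA G/G group than in wild-type. This list includes *Prg4* itself, with means of 84.1, 0.607 and 2.42 scaled TPM, so its sum is not separate from the likeness to *Prg4*. Once the means of group and sex were taken out, *Fn1* correlated with the cartilage list at r = 0.49 and with the fibroblast and periosteum list at 0.67. The part of cartilage left on the bone in the *Fn1* difference was not tested.

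Tenascin-C and periostin were higher in LMNA G/G bone of either treatment when both sexes were fitted together. *Tnc* (chr4:63959785-64047015, minus strand) had 21.6, 26.6 and 50.02 scaled TPM in the lowest, median and highest wild-type library, 32.02, 56.0 and 93.5 in saline and 28.1, 51.7 and 71.6 in ABE libraries. Above the highest wild-type value lay 9 of 12 saline and 6 of 12 ABE libraries. *Tnc* rose by 0.97 in saline bone (SE 0.17, adjusted p = 1.4e-05) and by 0.76 in ABE bone (SE 0.17, adjusted p = 1.9e-04) against wild-type. *Postn* (chr3:54361109-54391037, plus strand) had 1.13, 3.14 and 7.69 scaled TPM in wild-type, 4.10, 6.79 and 11.1 in saline and 4.09, 9.07 and 15.9 in ABE libraries. Every LMNA G/G library exceeded the wild-type median of *Postn*, and 5 saline and 7 ABE libraries exceeded its highest wild-type value. The rise of *Postn* was 0.93 in saline bone (SE 0.24, adjusted p = 0.0016) and 1.34 in ABE bone (SE 0.24, adjusted p = 9.4e-06). Between ABE and saline bone neither gene passed, with −0.22 for *Tnc* (95% interval −0.56 to 0.13, adjusted p = 0.30) and 0.41 for *Postn* (−0.08 to 0.89, adjusted p = 0.16). In females alone *Tnc* was not called against wild-type in saline (0.50, adjusted p = 0.17) or ABE bone (0.39, adjusted p = 0.19). *Postn* was called in females in ABE bone (0.91, adjusted p = 0.017) but not in saline bone (0.17, adjusted p = 0.75). In males alone both genes were called in both comparisons with wild-type. With the level of the skeletal muscle list as a covariate *Tnc* kept its call in both comparisons with wild-type, while the *Postn* difference between ABE and wild-type was 0.71 (adjusted p = 0.069). Over all genes the calls changed with this covariate from 8499 to 7523 for saline and from 11368 to 5441 for ABE against wild-type. On TPM as deposited, where the median of all genes sat at −0.42 between ABE and wild-type, *Tnc* was 0.18 higher (adjusted p = 0.55), which is 0.61 above that median. Osteoclast and osteocyte markers were higher together with *Tnc* in the comparisons with wild-type. The summed level of 8 osteoclast markers had medians of 145.1 scaled TPM in wild-type (range 117.7 to 243.6), 390.6 in saline (140.1 to 603.4) and 212.5 in ABE libraries (119.7 to 483.1). Of the 7 that could be tested, 7 were higher in saline and 5 in ABE than in wild-type bone, and all 7 osteocyte markers tested were higher in each LMNA G/G group. Between ABE and saline bone, where *Tnc* was not called, 5 of the 7 osteoclast markers and 1 of the 7 osteocyte markers were lower, and none was higher. After the means of group and sex were removed, *Tnc* correlated with the osteoclast list at r = 0.88, the osteoblast list at 0.68, the osteocyte list at 0.48 and the fibroblast and periosteum list at 0.028 over 36 libraries. The part of these cell types in the *Tnc* difference was not tested.

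Tenascin-X and thrombospondin-3 were lower in saline than in wild-type bone and higher in ABE than in saline bone when both sexes were fitted together. *Tnxb* (chr17:34670535-34719815, plus strand), whose product ties collagen fibrils together, had 1.66, 3.27 and 9.21 scaled TPM in the lowest, median and highest wild-type library, 0.225, 1.03 and 2.41 in saline and 0.868, 4.22 and 6.92 in ABE libraries. Every saline library lay below the wild-type median, and 10 of 12 ABE libraries lay above the highest saline value. *Tnxb* fell by 1.46 in saline bone (SE 0.27, adjusted p = 3.7e-05) and rose by 1.59 from saline to ABE (SE 0.27, adjusted p = 2.3e-04). ABE and wild-type bone differed by 0.13 (SE 0.27, adjusted p = 0.67), with a 95% interval from −0.42 to 0.68. *Thbs3* (chr3:89215180-89226837, plus strand), which belongs to the pentameric thrombospondins together with *Thbs4* and *Comp*, had 0.498, 0.887 and 1.99 scaled TPM in wild-type, 0.259, 0.524 and 1.19 in saline and 0.613, 1.45 and 2.65 in ABE libraries. It fell by 0.43 in saline bone (SE 0.15, adjusted p = 0.017) and rose by 0.87 from saline to ABE (SE 0.15, adjusted p = 2.4e-04), and 10 of 12 ABE libraries lay above the highest saline value. Against wild-type, ABE bone stood 0.45 higher (SE 0.15, adjusted p = 0.0085). The ABE and saline ranges overlapped in both genes. With the skeletal muscle level as a covariate the difference between ABE and saline was 0.87 for *Tnxb* (adjusted p = 0.0096) and 0.50 for *Thbs3* (adjusted p = 0.014), both still called. Over all genes the covariate changed the calls between ABE and saline from 7817 to 633. In that fit ABE bone stood 1.13 below wild-type for *Tnxb* (adjusted p = 3.7e-04), where the difference without the covariate was 0.13.

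Tenascin-W and thrombospondin-4 were higher in ABE bone than in either other group when both sexes were fitted together. *Tnn* (chr1:160085029-160153580, minus strand), a tenascin of bone and periosteum, had 0.222, 1.44 and 3.38 scaled TPM in wild-type, 0.215, 1.55 and 3.01 in saline and 1.78, 3.40 and 7.10 in ABE libraries. All 12 ABE values exceeded the median of either other group. *Tnn* rose by 1.16 against wild-type (SE 0.30, adjusted p = 9.4e-04) and by 1.08 against saline (SE 0.30, adjusted p = 0.0046), and saline and wild-type differed by 0.079 (SE 0.30, adjusted p = 0.85). *Thbs4* (chr13:92751590-92794818, minus strand) had 1.96, 6.36 and 18.3 scaled TPM in wild-type, 0.946, 5.49 and 11.02 in saline and 4.57, 19.3 and 26.9 in ABE libraries. Above the highest saline value of *Thbs4* lay 8 of 12 ABE libraries, and 6 of 12 lay above the highest wild-type value. It rose by 1.43 against saline (SE 0.36, adjusted p = 0.0024) and by 1.13 against wild-type (SE 0.36, adjusted p = 0.0059). The difference between saline and wild-type was −0.31 (SE 0.36, adjusted p = 0.49). *Thbs2* (chr17:14665500-14694235, minus strand), a trimeric thrombospondin of connective tissue cells, had 0.891, 1.86 and 4.52 scaled TPM in wild-type, 1.15, 3.03 and 5.26 in saline and 2.24, 4.72 and 8.15 in ABE libraries. It rose by 0.90 from wild-type to ABE (SE 0.22, adjusted p = 6.8e-04), and the step from wild-type to saline was 0.39 (SE 0.22, adjusted p = 0.14) and that from saline to ABE 0.51 (SE 0.22, adjusted p = 0.061). With the skeletal muscle level as a covariate the calls between ABE and saline ended for *Tnn* (0.47, adjusted p = 0.30) and *Thbs4* (0.50, adjusted p = 0.24). Against wild-type they ended for *Tnn* (0.088), *Thbs2* (0.12), *Thbs3* (−0.20) and *Thbs4* (−0.51). Most genes lost calls with it, as the all-gene counts went from 7817 to 633 against saline and from 11368 to 5441 against wild-type. The muscle level itself differed between groups, so this fit also takes out group differences that run with it. In the same fit *Thbs4* was called lower in saline than in wild-type bone (−1.01, adjusted p = 0.0011). Against wild-type, the females alone gave 0.76 for *Tnn* (adjusted p = 0.13), 0.38 for *Thbs4* (0.54), 0.44 for *Thbs2* (0.20) and 0.056 for *Thbs3* (0.82), none of them called, and the males alone gave 1.55, 1.88, 1.35 and 0.84, all called. Against saline, *Tnn* was called in females alone (1.39, adjusted p = 0.026) but not in males alone (0.76, adjusted p = 0.14). *Thbs4* was called against saline in females (1.60, adjusted p = 0.030) and in males (1.27, adjusted p = 0.037). On TPM as deposited the ABE and wild-type values differed by 0.60 for *Thbs4* (adjusted p = 0.16), 0.45 for *Thbs2* (0.11) and 0.095 for *Thbs3* (0.62), which were not called.

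Tendon, fibroblast and muscle transcripts are given beside these genes. The summed level of 7 tendon and ligament markers had medians of 9.47 in wild-type, 8.54 in saline and 25.1 in ABE libraries, with ranges of 3.71 to 25.4, 1.20 to 19.4 and 7.69 to 40.4, and all 4 that could be tested were higher in ABE than in saline bone. For 12 fibroblast and periosteum markers the medians were 72.1, 59.5 and 81.3, and 8 of 11 tested were higher in ABE than in saline bone while 7 of 11 were lower in saline than in wild-type. Against wild-type, ABE bone had 4 of these 11 higher and 4 lower, with a median of −0.028. The 13 skeletal muscle markers were all higher in ABE than in wild-type bone. After the means of group and sex were removed, the tendon list correlated with *Thbs4* at r = 0.97, *Thbs2* at 0.91, *Tnn* at 0.85, *Thbs3* at 0.81, *Postn* at 0.73 and *Tnxb* at 0.57 over 36 libraries, which share their depth and scaling. The fibroblast and periosteum list correlated with these genes, in the same order, at 0.81, 0.76, 0.67, 0.84, 0.59 and 0.64. For *Thbs3* and *Tnxb* that is above the r with the tendon list. *Tnxb* followed the skeletal muscle list at 0.79 and the vascular smooth muscle and pericyte list at 0.80. The part of tissue attached to the bone in these differences was not tested beyond the covariate fit.

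**Figure D3:**
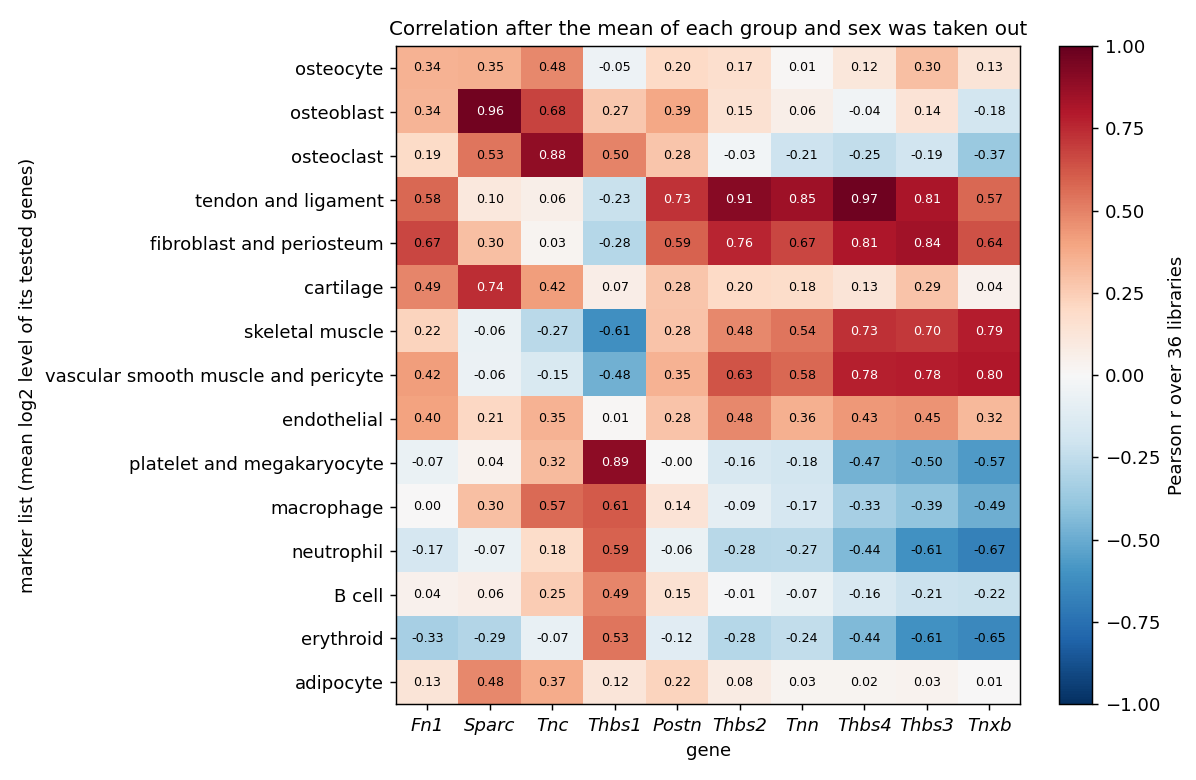
Pearson r between the log2 level of each member (columns) and the mean log2 level of each cell type marker list (rows) over 36 libraries after the mean of each group and sex was taken out. *Sparc* pairs with the osteoblast list (0.96), *Tnc* with the osteoclast list (0.88), *Thbs1* with the platelet list (0.89) and *Thbs4* with the tendon list (0.97).

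Thrombospondin-1 was lower in LMNA G/G bone and lowest after ABE treatment. *Thbs1* (chr2:118111876-118127133, plus strand), which can activate latent TGF-beta, had 24.6, 30.6 and 41.5 scaled TPM in the lowest, median and highest wild-type library, 13.9, 22.7 and 34.3 in saline and 6.06, 17.5 and 31.5 in ABE libraries. Below the lowest wild-type value lay 6 of 12 saline and 11 of 12 ABE libraries. *Thbs1* fell by 0.91 from wild-type to ABE (SE 0.17, adjusted p = 2.3e-05), by 0.46 from wild-type to saline (SE 0.17, adjusted p = 0.026) and by 0.45 from saline to ABE (SE 0.17, adjusted p = 0.031). Of 8 platelet and megakaryocyte markers all 7 tested were lower in each of the 3 comparisons, with median sums of 188 in wild-type, 94.6 in saline and 49.2 in ABE libraries. *Thbs1* correlated with this list at r = 0.93 over the 36 libraries and at 0.89 after the means of group and sex were removed. With the means left in, the genes most like *Thbs1* were *Itgb3* (0.94) and *Gp5* (0.94), both of which encode platelet surface receptors. With the means removed these stood at 0.91 and 0.92. The saline to wild-type call ended in 6 of 14 alternatives and the ABE to saline call in 5 of 14, among them quantile normalization (adjusted p = 0.13) for the former and the skeletal muscle covariate (adjusted p = 0.51) for the latter. With that covariate ABE stood −0.48 against wild-type (adjusted p = 0.097), which is not called. Over all genes it changed the calls from 7817 to 633 for ABE against saline and from 11368 to 5441 for ABE against wild-type. The part of platelet and megakaryocyte RNA in the *Thbs1* difference was not tested. Without ABE replicate 1, which had the lowest *Thbs1* level, the ABE to saline difference was −0.33 (adjusted p = 0.072). That call also ended without any of 5 other libraries, and the saline to wild-type call ended without saline replicate 1 (−0.40, adjusted p = 0.052) or saline replicate 11 (−0.39, adjusted p = 0.056).

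SPARC, the member with the highest level, was not called in any comparison. *Sparc* (chr11:55394500-55423183, minus strand) had 77.6, 126.4 and 263.7 scaled TPM in the lowest, median and highest wild-type library, 67.9, 170.3 and 242.0 in saline and 108.9, 146.2 and 260.7 in ABE libraries. The groups overlapped over most of their ranges. The log2 differences were 0.15 for saline against wild-type (95% interval −0.27 to 0.56, adjusted p = 0.56), 0.20 for ABE against wild-type (−0.21 to 0.62, adjusted p = 0.38) and 0.055 for ABE against saline (−0.36 to 0.47, adjusted p = 0.84). Within males alone *Sparc* was 0.69 higher in saline (adjusted p = 0.012) and 0.60 higher in ABE bone (adjusted p = 0.020) than in wild-type. *Sparc* followed the osteoblast list at r = 0.96 after the means of group and sex were removed. With those means left in, the genes most like *Sparc* were *Col5a2* (0.95), a fibrillar collagen gene, and *Bglap* (0.93), which encodes osteocalcin. The osteoblast list includes *Bglap*, so these 2 likenesses of *Sparc* are not separate. With the means removed *Col5a2* (0.97) and *Col11a1* (0.96) ranked first and second.

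The means of females and males were compared within each group. All 10 members had a higher mean in wild-type females than in wild-type males, by ratios from 1.15 to 2.17. In saline bone only *Fn1* did, and in ABE bone only *Tnn* and *Postn* did. *Postn* averaged 5.02 ± 1.90 (SD, n = 6) in wild-type females and 2.31 ± 1.13 in wild-type males, against 5.53 ± 1.59 and 8.12 ± 1.74 in saline females and males. Within males *Postn* rose by 1.69 from wild-type to saline (limma, 95% interval 1.12 to 2.26), and within females the difference was 0.17 (−0.47 to 0.80). *Thbs2* differed by 1.06 in males (0.50 to 1.61) and −0.28 in females (−0.88 to 0.32), and *Thbs4* by 0.62 in males (−0.24 to 1.47) and −1.23 in females (−2.29 to −0.17). *Tnc* was not called in females alone (0.50, adjusted p = 0.17), nor was *Thbs3* in males alone (−0.056, adjusted p = 0.81).

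The difference between the sexes was tested as an interaction in limma. For saline against wild-type all 10 interaction terms (female minus male) were negative, from −1.84 in *Thbs4* to −0.41 in *Thbs1*, where 51.3% of all genes had a negative term. None passed adjustment, with adjusted p from 0.057 (*Postn*) to 0.46 (*Thbs1*), while 8 of 10 had an unadjusted p under 0.05 beside 22.0% of all genes (11.4% with a negative term), and 0.478% of all genes were called. For ABE against wild-type all 10 terms were again negative and none was called, with 7 at an unadjusted p under 0.05 beside 19.4% of all genes (10.4% negative), and 2.95% of all genes were called. For ABE against saline 3 terms were negative, none was called where 0.0248% of all genes were, and none had an unadjusted p under 0.05 where 16.3% of all genes had. With voom on recovered reads no member was called in any of the 3 tests either. The first 2 tests share the wild-type mice. Tissue marker lists differed by sex in wild-type bone too, with median sums for the tendon list of 12.8 in females and 6.57 in males, against 7.09 and 11.6 in saline bone. The osteoblast list had 1509 and 1053 in wild-type and 840.3 and 1504 in saline females and males. The part of tissue composition in these sex differences was not tested. The interaction of *Postn* between saline and wild-type passed in several alternatives, among them the fit of the compared groups alone (adjusted p = 0.033), and without WT replicate 10 it passed for 5 members, *Tnc*, *Postn*, *Thbs2*, *Thbs3* and *Thbs4*.

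**Figure D4:**
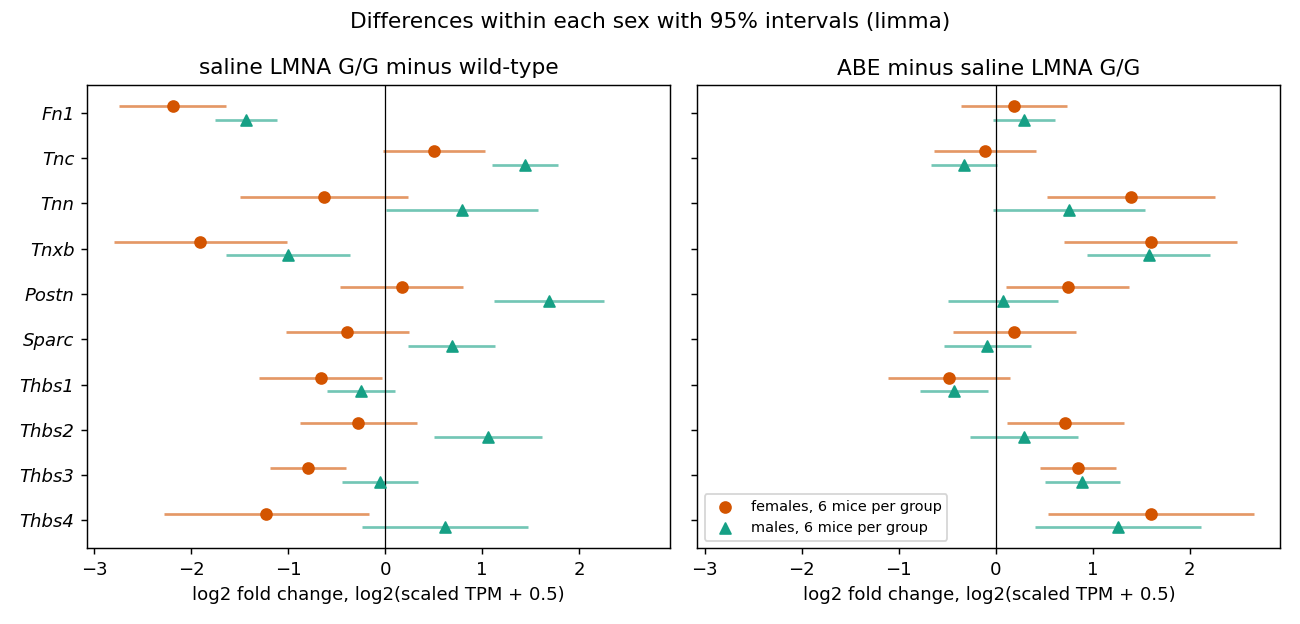
Log2 fold change with 95% intervals (limma) within females (circles) and males (triangles), 6 mice per sex and group, for saline against wild-type on the left and ABE against saline on the right. On the left every female value lies to the left of the male value, as for *Postn* (0.17 and 1.69), and on the right the 2 sexes lie close together for *Tnxb* (1.60 and 1.58).

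Libraries that were high for 1 member tended to be high for others. The wild-type library of replicate 6, a female, held the highest value of its group for 7 members (*Fn1*, *Tnn*, *Tnxb*, *Postn*, *Thbs2*, *Thbs3* and *Thbs4*) and the highest sums of the tendon, cartilage and skeletal muscle lists. In the saline group the library of replicate 11 held the highest value for 6 of these, all but *Fn1*, and in the ABE group the library of replicate 1 held the lowest value for 6 members. After the means of group and sex were removed, 37 of 45 pairs of members correlated positively, with a median r of 0.35. The closest pairs were *Tnn* and *Thbs2* (0.92), *Thbs2* and *Thbs4* (0.87), *Postn* and *Thbs2* (0.87), *Tnn* and *Thbs4* (0.84) and *Tnxb* and *Thbs3* (0.82). *Thbs1* ran against *Tnxb* (−0.56). Genes outside the list were first ranked with the group and sex means left in. On that scale *Col12a1*, a fibril-associated collagen gene, was most like both *Postn* (0.97) and *Thbs2* (0.95). *Fmod*, which encodes the tendon proteoglycan fibromodulin, was most like *Thbs4* (0.96) and *Tnn* (0.92). The tendon list includes *Fmod* itself, so this likeness is not separate from the correlations of these genes with that list. *Cdh11* (0.95), a cadherin gene of osteoblasts, was most like *Tnc*, *Pkd1* (0.94) most like *Thbs3* and *Klc1* (0.85) most like *Tnxb*. With the means removed *Col12a1* still ranked first for *Postn* and *Thbs2*, and *Fmod* for *Thbs4*. First for *Tnc*, *Thbs3*, *Tnxb* and *Tnn* were then *Serpine2* (0.96), *Nbl1* (0.89), *Trip10* (0.87) and *Col3a1* (0.91). Without WT replicate 6, saline replicate 11 or ABE replicate 1 the number of members called was 6, 5 and 6 for saline against wild-type, 8 in each case for ABE against wild-type, and 6, 6 and 5 for ABE against saline.

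Receptors and partners of these proteins moved in both directions. Of 13 tested, 4 were higher and 1 lower in saline than in wild-type bone, where 25.7% of all genes were higher and 27.0% lower. In ABE against wild-type 7 were higher and 4 lower (34.7% and 35.8% of all genes). In ABE against saline 2 were higher and 3 lower (24.8% and 23.7% of all genes). *Itgb3*, the beta subunit of the vitronectin and fibrinogen receptors, averaged 29.2 ± 3.83 scaled TPM in wild-type, 19.1 ± 6.19 in saline and 12.02 ± 5.75 in ABE bone (SD, n = 12) and fell by 0.66 (adjusted p = 0.0042), 1.37 (adjusted p = 1.7e-07) and 0.71 (adjusted p = 0.0034) in the 3 comparisons. *Itgb1*, the beta subunit of the main fibronectin receptor, rose by 0.31 in saline bone (adjusted p = 6.2e-05) and by 0.40 in ABE bone (adjusted p = 8.1e-07). *Itgb6*, which pairs with integrin alpha v to bind fibronectin and tenascin-C, was low at 0.229 ± 0.134 scaled TPM in wild-type and 1.48 ± 0.686 in ABE bone, a rise of 1.38 (adjusted p = 4.0e-08).

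Of 17 other matricellular genes tested, 4 were higher and 5 lower in saline than in wild-type bone (25.7% and 27.0% of all genes). In ABE against wild-type 8 were higher and 5 lower (34.7% and 35.8% of all genes). In ABE against saline 7 were higher and 3 lower (24.8% and 23.7% of all genes). *Spp1*, which encodes osteopontin, rose from 58.4 ± 19.0 scaled TPM in wild-type to 257.4 ± 91.4 in saline bone (log2 difference 2.10, adjusted p = 1.8e-10) and fell by 0.84 from saline to ABE, where it averaged 142.3 ± 46.8 (adjusted p = 0.0015). *Comp*, the cartilage and tendon thrombospondin, fell by 2.12 in saline bone (adjusted p = 1.2e-06) and rose by 1.15 from saline to ABE (adjusted p = 0.0040), with means of 18.9, 4.40 and 11.4. *Ccn2*, a connective tissue growth factor gene, rose by 0.79 from wild-type to ABE (adjusted p = 3.3e-04), and differed by 0.39 in each of the other two comparisons without passing (adjusted p = 0.072 and 0.076).

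Of 18 genes for fibronectin assembly, crosslinking and collagen partners, 8 were higher in saline than in wild-type bone and the other 10 were not called. In ABE against wild-type 11 were higher and the other 7 were not called, and in ABE against saline 3 were higher and 2 lower. Over all genes, 25.7%, 34.7% and 24.8% were higher and 27.0%, 35.8% and 23.7% lower in the 3 comparisons. *Col12a1* rose by 0.68 in saline (adjusted p = 0.013) and 1.27 in ABE bone (adjusted p = 1.0e-05) against wild-type and by 0.59 from saline to ABE (adjusted p = 0.032). *Lox*, the enzyme that crosslinks collagen and elastin, rose by 0.56 in saline bone (adjusted p = 0.0052) and fell by 0.46 from saline to ABE (adjusted p = 0.022). The collagen I genes *Col1a1* and *Col1a2*, the most abundant of the list, differed from wild-type by −0.36 and −0.23 in saline and by −0.24 and −0.14 in ABE bone, with adjusted p from 0.25 to 0.63. The medians of the 3 lists lay at 0.069, −0.084 and 0.30 for saline against wild-type, at 0.17, 0.29 and 0.37 for ABE against wild-type and at 0.064, 0.39 and 0.089 for ABE against saline, beside the medians near 0 of all genes.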

How the data were processed

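The authors aligned strand-specific poly(A) reads of tibial bone to GRCm38 with STAR 2.73a and counted them with QoRTs on GENCODE annotation, per their methods and processing notes. The deposited table gives TPM for 56246 genes in 36 libraries, and how TPM was computed is not given in the sources used here. Each value came out as a whole number of reads (tolerance 0.01) times a constant over gene length minus 218 bases, so very short genes take a large share of TPM. Deposited TPM was therefore divided by a median ratio factor per library over 14219 genes (scaled TPM).

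Main tests used limma 3.58.1 in R 4.3.3 on log2(scaled TPM + 0.5), with sex as a covariate, in 1 fit of all 36 libraries over 16123 genes of mean TPM at least 0.5, with Benjamini-Hochberg adjustment and a threshold of 0.05. Log2 fold changes on this scale understate the change of low genes. The sex interaction used the same libraries. Labels say that the samples are separate mice. Where a symbol stood in several rows, the row with the highest mean was kept. Simulated data were used to test the fit for saline against wild-type over 16123 genes. Of 200 changed genes 162 were called (89 of 100 at a log2 change of 1 and 73 of 100 at 0.5), with 41 unchanged genes. In this 1 simulated set the unchanged genes made up a larger share of the calls than the threshold of 0.05. The set held far fewer changed genes than the 8499 called in the data, so it does not give the error rate there.

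Beyond the members, which are all named, the 2 most abundant genes of each list and the ones with the largest called rise and fall were named, and for likeness the 3 genes with the highest r were found. The members and lists were chosen with earlier results of these data known. Coordinates are GENCODE vM21 on GRCm38, matched by gene ID. Alternatives covered scaling, pseudocount, filter, sexes, weights, recovered reads, a skeletal muscle covariate and each library left out.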

Additional observations from a re-analysis of the deposited data

How the results depend on the processing

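No paired analysis was possible because the replicate numbers follow accession order only and pair no mice across groups, and the labels give no litter. In the 14 alternatives and with each of 36 libraries left out, *Fn1* kept its fall against wild-type in both LMNA G/G groups, and *Tnxb* its fall in saline bone and its rise from saline to ABE, as did *Thbs3* for the latter, wherever each gene was tested. The all-gene median moved to −0.13, −0.42 and −0.27 in the 3 comparisons (saline against wild-type, ABE against wild-type, ABE against saline) on TPM as deposited, to −0.18, −0.24 and −0.037 on TPM rescaled over longer genes only, and to −0.20 and −0.17 in the last 2 with voom on recovered reads. Calls then split into 1038 higher and 3704 lower, 1470 and 9458, and 531 and 6574 on deposited TPM, into 1867 and 6645 and 3551 and 7876 in the first 2 comparisons over longer genes, and into 3912 and 7190 and 2025 and 6513 in the last 2 with voom. Apart from these shifts and the alternatives' own construction, the cause of the changes below was not tested.

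Members called changed from 6 to 3 in females for saline against wild-type. For ABE against wild-type they changed from 8 to 4 (deposited TPM), 3 (females) and 3 (skeletal muscle covariate). For ABE against saline they changed from 5 to 3 (males) and 2 (muscle covariate). The filter at 5 TPM left only 6 members to test, of which 5 were called for ABE against wild-type and 2 for ABE against saline. Interaction calls changed from 0 to 3 (array weights) and 2 (compared groups only) for saline against wild-type, and to 1 (deposited TPM) for ABE against wild-type. Over all genes 8499 calls became 4742 (deposited TPM), 13149 (no filter), 2124 (filter at 5 TPM) and 3488 (females) for saline against wild-type. For ABE against wild-type 11368 became 19185 (no filter), 2710 (filter) and 5441 (muscle covariate). For ABE against saline 7817 became 1828 (filter), 4892 (females), 3392 (males) and 633 (muscle covariate). These counts are out of 43628 genes with no filter, 4048 with the filter at 5 TPM and 16123 in the other fits. With a library left out, all-gene calls ran from 7896 to 9006, 11131 to 11577 and 6786 to 8644, member calls from 5 to 6, 8 to 8 and 4 to 6, and interaction calls from 0 to 5 (5 without WT replicate 10), 0 to 2 (2 without WT replicate 5 or 10) and 0 to 0.

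Signs turned in these cases. *Tnn* for saline against wild-type was −0.012 (deposited TPM), −0.045 (longer genes), −0.63 (females), −0.38 (muscle covariate), and −0.042, −0.030 and −0.0078 without WT replicate 1, WT replicate 11 and saline replicate 11 (range −0.042 to 0.21 over all libraries left out). *Sparc* was −0.029, −0.043 and −0.39 (deposited, longer genes, females) for saline against wild-type, −0.38, −0.022 and −0.20 (the same) for ABE against wild-type, and −0.35, −0.083, −0.11 and −0.049 (deposited, males, voom, muscle covariate) for ABE against saline, with −0.00024, −0.0064, −0.036 and −0.0016 without saline replicates 1, 2 and 6 and ABE replicate 12 (range −0.036 to 0.13). *Thbs2* was −0.28 in females and *Thbs4* 0.62 in males for saline against wild-type. *Tnxb* for ABE against wild-type was −0.35, −0.080, −0.31, −0.051 and −1.13 (deposited, longer genes, females, voom, muscle covariate), and with the muscle covariate *Thbs3* was −0.20 and *Thbs4* −0.51. *Fn1* for ABE against saline was −0.14 on deposited TPM. None of these values was called except *Tnxb* with the muscle covariate. The lowest counts were 430 reads for *Tnn* and 512 for *Thbs3*, and what depth limits was not tested.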
